A study of Saccharomyces cerevisiae with 4 samples.

Results

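The genes described here encode the proteins that build the small (40S) ribosomal subunit of budding yeast, Saccharomyces cerevisiae: the small-subunit processome, which folds and cuts the first ribosomal RNA transcript, and the factors that finish the 40S particle. They were taken as the rows of a fixed list of systematic gene names and number 51 of 6176 genes on the arrays. The list was chosen by function, with earlier results of these data known. The study set rapamycin-treated against mock-treated cells in the wild type and in ptc1 cells, where the protein phosphatase Ptc1 is missing. Both strains grew at 28 °C in rich medium, and at an absorbance (A660) of 0.5 they received 200 ng/ml rapamycin for 1 h or the ethanol and Tween-20 vehicle alone. Treated and mock-treated cells of the same strain were set against each other on each of 4 arrays, 2 per strain, with the dyes swapped between the arrays of a strain.

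Ribosome assembly begins in the nucleolus, where the processome forms on the growing pre-ribosomal RNA around the U3 small nucleolar ribonucleoprotein, whose RNA pairs with the transcript. Subcomplexes called UTP-A and UTP-B bind first, the Mpp10 complex and many single factors follow, RNA helicases remodel the particle, and late factors accompany it to the cytoplasm, where the 18S ribosomal RNA receives its final cut. The whole programme costs a growing cell much of its RNA synthesis and is under the control of TORC1, a nutrient-responsive protein kinase complex that rapamycin inhibits.

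All values are ratios of rapamycin to mock on the log2 scale. Base and direction of the ratios were not recorded beside the values, so all folds rest on this reading. The dye-swapped arrays of a strain correlated positively over all genes, with r = 0.958 for the wild type and 0.861 for ptc1, and no sign was turned. A dye swap of 1 RNA pair counts as 1 sample per strain, no spread between cultures was measured, and no test was run. The ± of a mean is the SD of the 2 arrays of the strain. A gene is said to have fallen or risen where its mean reached 1 in size (2-fold) and its 2 arrays shared that sign. Equal amounts of RNA were labelled and the channels normalised to each other, so a ratio reflects a gene's share of the RNA. A change in total RNA per cell is not seen in it. The arrays gave values for 5006 to 5418 of 6212 rows, and the column medians were 0.131 and −0.0015 in the wild type, against 0.015 and 0.083 in ptc1. A gene's arrays had a median SD of 0.155 in the wild type, against 0.277 in ptc1. PTC1 itself stood at 0.003 and −0.525 on the wild-type arrays and had no value on either ptc1 array.

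Most of the 40S assembly genes were lower after rapamycin in the wild type. Both wild-type arrays measured 47 of the 51 genes, and of these 38 fell, 1 rose and 8 did not reach 2-fold. Among all 4796 genes measured in that strain 15.0% fell and 13.8% rose by the same rule. The median over the 47 genes was −2.40, against 0.07 over all genes, and 44 of the 47 means lay below 0. UTP10 (YJL109C), RRP5 (YMR229C) and UTP14 (YML093W) had no value on any array and BMS1 had none in the wild type, so nothing is known of these 4 genes there. They encode a UTP-A subunit, an RNA-binding protein that acts in the assembly of both subunits, the activator of the helicase Dhr1, and a GTPase. The members' median was −2.17 on array 1 and −2.61 on array 2, and array 2 gave the lower value for 34 of 47 members (72.3%), compared with 57.6% of all genes.

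**Figure D1:**
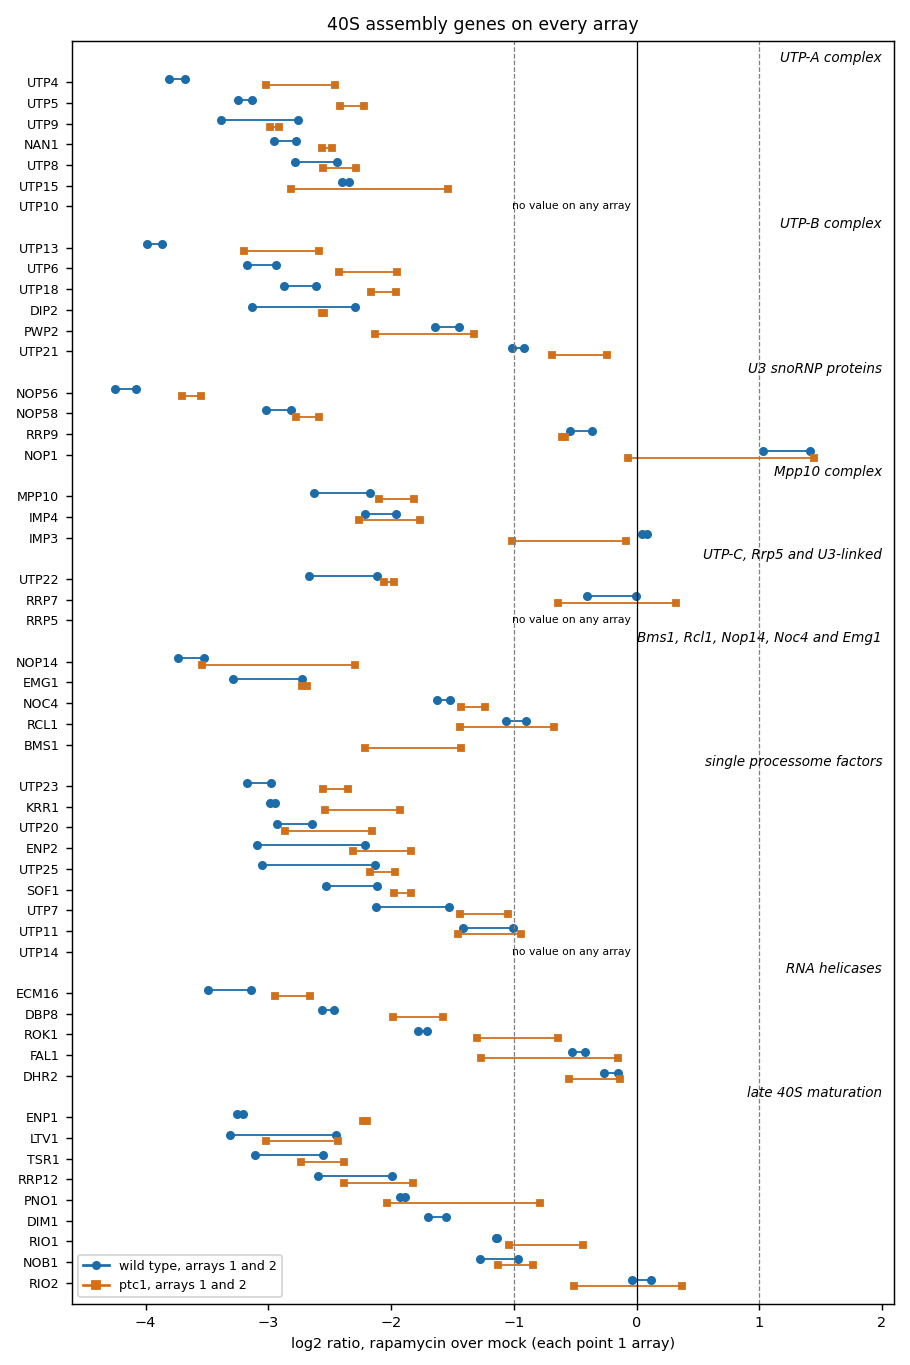
Log2 ratio of rapamycin over mock on each array for the 51 genes, grouped by role and ordered by wild-type mean; each point is 1 array, a line joins the 2 arrays of a strain, and dashed lines mark 2-fold. Most pairs of points lie between −1 and −4, NOP1 lies to the right of the other genes, and the 3 genes without any value are marked.

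The deepest fall was that of NOP56 (YLR197W), which encodes a scaffold protein of the box C/D ribonucleoproteins, to which U3 belongs. Its ratios were −4.08 and −4.25 on the wild-type arrays and −3.71 and −3.55 on the ptc1 arrays. The wild-type mean of −4.16 ± 0.12 is a 17.9-fold lower level and made it the 23rd lowest of 4796 genes, and in ptc1 it was 12.4-fold lower and the 42nd lowest of 5221. NOP58 (YOR310C), its partner in the same particles, read −3.02 and −2.81 in the wild type, against −2.77 and −2.59 in ptc1. Both genes fell in both strains, and the arrays of a strain differed little.

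NOP1 and RRP9, the other U3 protein genes among the members, did not follow. NOP1 (YDL014W) encodes fibrillarin, the RNA methyltransferase of the box C/D particles, and it read 1.03 and 1.41 in the wild type. That mean of 1.22 ± 0.27 made it the one member that rose in either strain. Values here are those of the rows carrying a gene's name, and whether the spots named NOP1 and IMP3 hold those genes was not tested. On the ptc1 arrays it read 1.44 and −0.07, the widest gap between arrays of any member, so its ptc1 mean of 0.68 ± 1.07 fixes no direction. RRP9 (YPR137W), whose product binds the U3 RNA specifically, read −0.37 and −0.54 in the wild type, against −0.61 and −0.58 in ptc1, short of 2-fold on all 4 arrays. The group of 4 therefore held both the lowest and the highest wild-type mean among the members.

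The UTP-A complex, which binds the start of the transcript and is tied in yeast to transcription of the ribosomal RNA genes, fell in every measured member. All 6 fell in both strains, with medians of −2.97 in the wild type and −2.47 in ptc1. UTP4 (YDR324C) was the lowest in the wild type, with −3.68 and −3.81 (13.4-fold lower), and read −3.02 and −2.46 in ptc1. UTP5 (YDR398W) read −3.13 and −3.25 in the wild type, against −2.42 and −2.22 in ptc1, again with the wild-type pair below the ptc1 pair. UTP9 (YHR196W), the lowest of the complex in ptc1, read −2.98 and −2.92 there and −2.76 and −3.39 in the wild type, so that the strains overlapped. UTP8 (YGR128C, −2.61 ± 0.24 in the wild type), NAN1 (YPL126W), also known as UTP17 (−2.87 ± 0.13), and UTP15 (YMR093W, −2.37 ± 0.04) completed the group. UTP15 was imprecise in ptc1, at −1.54 and −2.82.

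In the UTP-B complex, which binds next to the U3 particle, 5 of 6 members fell in each strain, and the medians were −2.73 and −2.13. UTP13 (YLR222C) read −3.86 and −3.98 in the wild type, against −3.20 and −2.59 in ptc1, so that its wild-type level was 15.2-fold lower and its ptc1 level 7.43-fold lower. UTP6 (YDR449C) read −2.94 and −3.17 in the wild type, against −1.96 and −2.42 in ptc1. In both genes each wild-type array lay below each ptc1 array. UTP18 (YJL069C, −2.74 ± 0.19) and DIP2 (YLR129W), the gene of Utp12 (−2.71 ± 0.60), fell to similar means in the wild type. UTP21 (YLR409C) read −1.01 and −0.92 in the wild type, against −0.24 and −0.69 in ptc1, the member just outside the 2-fold line in the wild type together with RCL1 (YOL010W). PWP2 (YCR057C), which encodes Utp1, was represented by 3 rows that the current annotation assigns to this gene. One of them had no wild-type value, so the wild-type mean of −1.55 ± 0.13 averages 2 rows and the ptc1 mean of −1.73 ± 0.57 averages 3, and the means cannot be set against each other. Its own row alone read −1.52 and −1.14 in the wild type, against −1.35 and −0.82 in ptc1, so PWP2 fell either way and its depth depends on the rows used.

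The Mpp10 complex, which joins U3 to the pre-ribosomal RNA, split. MPP10 (YJR002W), the gene of its scaffold, read −2.17 and −2.62 in the wild type, against −2.10 and −1.81 in ptc1. IMP4 (YNL075W), whose product promotes pairing of U3 with the transcript in yeast, read −1.96 and −2.21 in the wild type, against −2.26 and −1.76 in ptc1. Both genes thus fell in both strains, and in IMP4 the arrays of the strains overlapped. IMP3 (YHR148W), which encodes the other pairing factor, read 0.08 and 0.05 in the wild type, against −1.02 and −0.09 in ptc1. It was thus near 0 on both wild-type arrays, and its ptc1 mean of −0.55 ± 0.66 was smaller in size than its own array spread.

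UTP22 (YGR090W) and RRP7 (YCL031C) encode proteins of the UTP-C complex and differed in the same manner. UTP22 fell, with −2.12 and −2.66 in the wild type, against −1.98 and −2.06 in ptc1. RRP7 read −0.01 and −0.41 in the wild type, against −0.64 and 0.32 in ptc1, with no sign that held over the 4 arrays.

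Among the proteins grouped around the GTPase Bms1 and the partners Nop14 and Noc4, NOP14 (YDL148C) had the lowest wild-type ratios, −3.52 and −3.74, and was 12.4-fold lower. Its ptc1 arrays disagreed in size, at −3.54 and −2.29. EMG1 (YLR186W), whose product methylates a pseudouridine of the 18S ribosomal RNA, read −3.28 and −2.72 in the wild type, against −2.69 and −2.73 in ptc1. NOC4 (YPR144C) fell less, to −1.57 ± 0.07 and −1.33 ± 0.14. RCL1, whose product binds Bms1, read −1.07 and −0.90 in the wild type, against −0.67 and −1.44 in ptc1, and its means of −0.98 and −1.06 lie on either side of the 2-fold line. BMS1 (YPL217C) was measured in ptc1 alone and fell there, with −2.22 and −1.43. All 5 genes of this group were past the line in ptc1 and 3 of 4 in the wild type, a difference that comes from RCL1 and from the missing wild-type value.

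Each of the 8 measured single processome factors fell in both strains, with medians of −2.62 and −2.07. UTP23 (YOR004W), related to nucleases of the PIN domain family, was the lowest in the wild type, with −2.98 and −3.17, and read −2.35 and −2.55 in ptc1. KRR1 (YCL059C), a gene of an RNA-binding KH-domain protein, read −2.98 and −2.94 in the wild type, against −2.54 and −1.93 in ptc1. UTP25 (YIL091C) read −2.13 and −3.05 in the wild type, the widest wild-type gap of any member, and −1.96 and −2.18 in ptc1. UTP20 (YBL004W, −2.79 ± 0.20 in the wild type and the lowest in ptc1 at −2.51 ± 0.50), ENP2 (YGR145W, −2.65 ± 0.62), SOF1 (YLL011W, −2.33 ± 0.29) and UTP7 (YER082C, −1.83 ± 0.42) lay between UTP23 and UTP11 (YKL099C), the shallowest at −1.21 ± 0.29. With ptc1 array 1 left out UTP11 stood at −0.94 in that strain and was no longer counted.

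The RNA helicase genes were divided, with 3 of 5 lower in the wild type and 2 of 5 in ptc1. ECM16 (YMR128W) encodes Dhr1, the helicase that removes U3 from the particle, and it read −3.49 and −3.14 in the wild type, against −2.95 and −2.66 in ptc1. DBP8 (YHR169W) fell to −2.51 ± 0.07 in the wild type and −1.78 ± 0.29 in ptc1. ROK1 (YGL171W) read −1.70 and −1.78 in the wild type, against −1.30 and −0.64 in ptc1, so it fell in the wild type alone, and with ptc1 array 2 left out its ptc1 value of −1.30 was past the line too. FAL1 (YDR021W) read −0.42 and −0.52 in the wild type, against −0.15 and −1.27 in ptc1, and DHR2 (YKL078W) read −0.26 and −0.15, then −0.55 and −0.14. Neither of these 2 genes reached 2-fold in a strain mean.

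Of 9 late maturation genes 8 fell in the wild type, with a median of −1.91, and 5 of the 8 measured in ptc1 fell there, with a median of −1.75. ENP1 (YBR247C), whose product stays with the particle from the nucleolus to the cytoplasm, read −3.25 and −3.20 in the wild type, against −2.23 and −2.20 in ptc1, with close agreement between the arrays of each strain. LTV1 (YKL143W, −2.88 ± 0.61 in the wild type), TSR1 (YDL060W), the gene of a GTPase-like factor (−2.83 ± 0.39), and RRP12 (YPL012W), needed for export from the nucleus (−2.30 ± 0.43), also fell in both strains. PNO1 (YOR145C), also called DIM2, encodes the partner of the nuclease Nob1 and read −1.89 and −1.92 in the wild type, against −0.79 and −2.03 in ptc1, where the call is lost with array 2 left out. DIM1 (YPL266W), the dimethyltransferase of the 18S ribosomal RNA, read −1.55 and −1.70 in the wild type and had no ptc1 value.

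The other 3 late genes were close to the 2-fold line or short of it. RIO1 (YOR119C), which encodes an atypical kinase of the final maturation step, read −1.14 on both wild-type arrays and −0.44 and −1.04 in ptc1. NOB1 (YOR056C), which encodes the nuclease that makes the final cut of the 18S ribosomal RNA, read −1.27 and −0.97 in the wild type, against −0.85 and −1.13 in ptc1. RIO1 and NOB1 are the members just inside the line in the wild type, and NOB1 is lost there with array 1 left out. RIO2 (YNL207W), a related kinase gene, read 0.12 and −0.04 in the wild type, against 0.37 and −0.51 in ptc1, values whose signs differed between the arrays of each strain.

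In the ptc1 strain 36 of 47 measured members fell and none rose, and all ptc1 means but that of NOP1 lay below 0. By the same rule 12.4% of 5221 genes fell in that strain and 10.6% rose, and the median was −2.06 over the members and 0.08 over all genes. Over the 46 members measured on all 4 arrays 34 fell in both strains. ROK1, RIO1 and NOB1 fell in the wild type alone and RCL1 in ptc1 alone, and each lay close enough to the line that leaving out 1 array moved at least 1 of its calls. With each array centred on its median, UTP21 and RCL1 in the wild type and ROK1 and NOB1 in ptc1 were past the line as well. The remaining members were NOP1 and 7 genes short of 2-fold in both strains, UTP21, RRP9, IMP3, RRP7, FAL1, DHR2 and RIO2. Across the 46 members the strain means correlated with Pearson's r = 0.96 and Spearman's rho = 0.94. The genes are not independent replicates and the points of a strain share 2 arrays. The members' arrays had a median SD of 0.146 in the wild type, against 0.317 in ptc1. Unlike in the wild type, array 2 gave the lower value for a minority of members in ptc1, 18 of 47 (38.3%), compared with 47.2% of all genes.

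**Figure D2:**
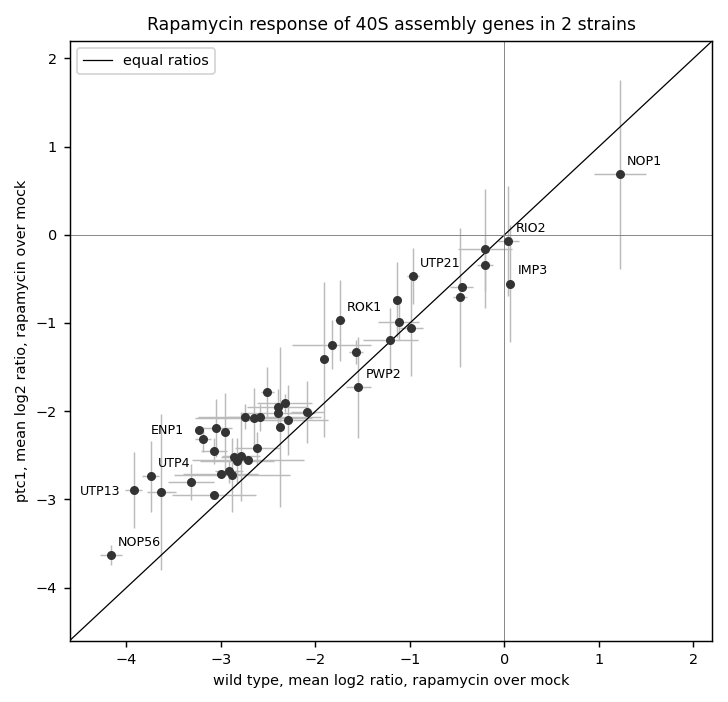
Mean log2 ratio in ptc1 (vertical axis) against the wild type (horizontal axis) for the 46 genes measured on all 4 arrays; bars are the SD of the 2 arrays and the line marks equal ratios. Of the 46 points 38 lie above the line, most of them at the low end, and NOP1 is alone at the upper right.

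The next comparison asked whether the response of these genes differed without Ptc1. Each ratio is relative to mock-treated cells of its own strain, so the data do not say which of the cell populations differs. The ptc1 ratio lay above the wild-type ratio in 38 of 46 (82.6%), or in 39 with PWP2 taken from its own row, compared with 49.5% of all 4650 genes. The median difference, ptc1 minus wild type, was 0.32, with 0.21 and 0.60 as the lowest and highest of the 4 array pairs, against a median of −0.004 over all genes. Without wild-type array 2 it was 0.20. In 23 members the 4 array-to-array differences shared 1 sign, above 0 in 21 and below 0 in 2. Of all genes 18.2% had the 4 differences above 0 and 16.5% below. The same direction was seen in other genes that fell. Among 660 other genes that fell in the wild type the ptc1 ratio was higher in 574 (87.0%) with a median difference of 0.35, and among the 37 members that fell there it was higher in 36 with a median of 0.42. Both of these sets were picked on wild-type values that enter the difference.

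The difference also depended on the overall spread of the arrays. Over all genes the SD of the ratios was 1.26 and 1.25 on the wild-type arrays and 1.09 and 1.11 on the ptc1 arrays. With the arrays scaled to the same spread, the ptc1 ratio was the higher in 25 of 46 members, and the median difference became 0.03. In the deposited values the lower members had the larger differences. The wild-type ratio on array 1 correlated with the ptc1 mean minus wild-type array 2 at r = −0.71. With the arrays exchanged r was −0.55, across 46 members that share the same 4 arrays. Both wild-type arrays hold the same RNA pair, so deviations of that pair enter both sides with opposite sign. A negative r is thus partly built in.

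A strain difference was counted where it reached 1 in size and its 4 array-to-array differences shared that sign. Of all genes 0.989% met this rule with the ptc1 ratio above the wild-type ratio and 0.925% with the ptc1 ratio below. Among the 46 members 3 met it, UTP13, ENP1 and UTP4, all with a higher ratio in ptc1. It was also met in that direction by 5 of 56 genes in the list for the large (60S) subunit described below. Of the 660 other genes that fell in the wild type, picked on wild-type values, 29 met it in that direction. The count is thus not particular to the members. UTP13 differed by 1.03 ± 0.44, with 0.66 to 1.40 over the pairs of arrays. UTP4 differed by 1.00 ± 0.41, with 0.66 to 1.35. ENP1 differed by 1.02 ± 0.04, and its 4 pairs of arrays lay between 0.98 and 1.06, a spread far smaller than that of the other 2 genes. Scaling the arrays to equal spread left 0.60, 0.59 and 0.67 for UTP13, UTP4 and ENP1 and no member past the rule. UTP4 and UTP13 stood at 0.94 and 0.97 without wild-type array 2 and at 0.72 and 0.73 without ptc1 array 2, and ENP1 at 0.99 without wild-type array 1. Without wild-type array 2 the rule thus left 1 member, and without ptc1 array 1 it took in 7, adding NOP14, KRR1 and ROK1 with a higher and NOP1 with a lower value in ptc1.

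UTP5 (0.87 ± 0.16) and UTP6 (0.86 ± 0.37) followed just below the rule, with all array differences above 0. At the other end IMP3 had the lowest difference, −0.62 ± 0.66, followed by NOP1 (−0.54 ± 1.11), FAL1 (−0.24 ± 0.79) and RRP9 (−0.14 ± 0.12). Of these 4 genes RRP9 alone had a difference larger than its error, and IMP3 and RRP9 were the 2 members whose ptc1 values lay below their wild-type values on every pair of arrays. The averaged rows of PWP2 differed by −0.18 ± 0.59, but these are not the same rows in both strains, and its own row alone differed by 0.24.

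**Figure D3:**
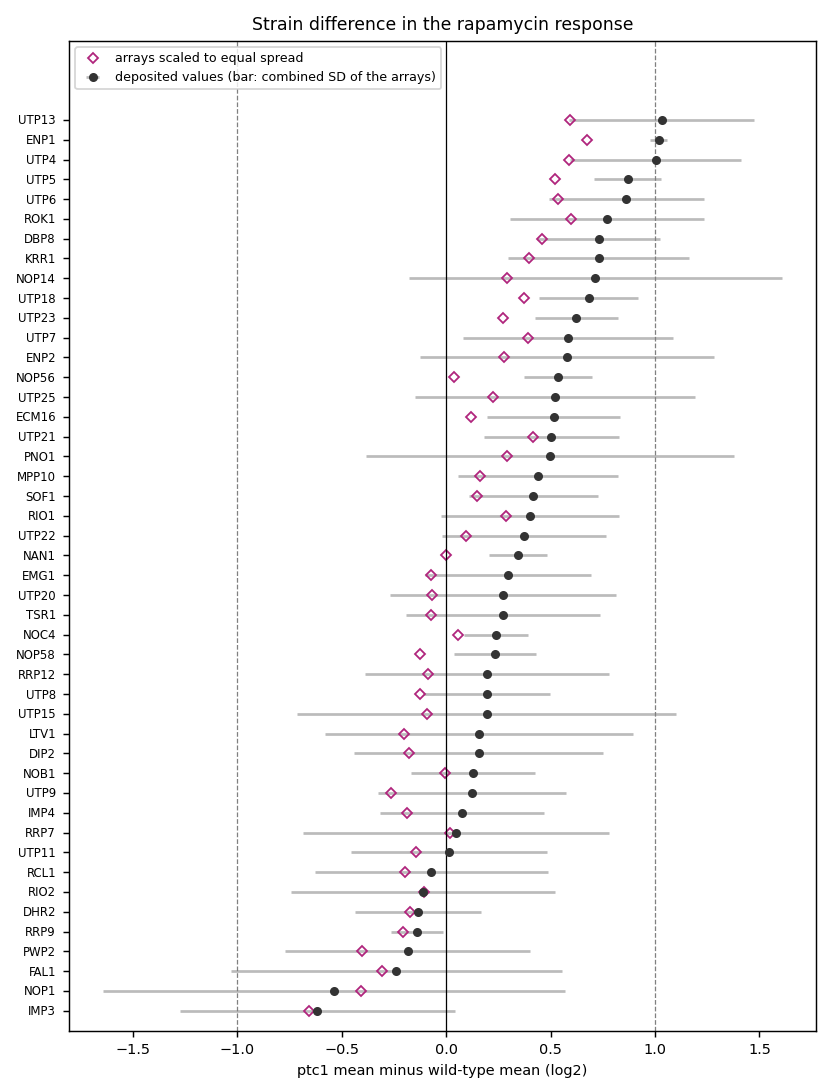
Difference of the mean log2 ratios, ptc1 minus wild type, for the 46 genes measured on all 4 arrays; filled points are the deposited values with the combined SD of the arrays as bars, open diamonds the values after scaling the arrays to equal spread, and dashed lines mark a difference of 1. UTP13, ENP1 and UTP4 reach 1 in the deposited values, and none reaches it after scaling.

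The pattern was next set beside other genes of ribosome production, listed from general knowledge of yeast with earlier results of these data known. In a list of 36 further 40S assembly genes 17 of 27 measured in the wild type fell and none rose, with a median of −1.24, and 17 of 30 fell in ptc1 with a median of −1.18. The lowest were KRE33, an RNA acetyltransferase gene (−3.71 ± 0.43 in the wild type), SNU13, whose product binds the U3 RNA (−3.54 ± 0.09), the helicase gene PRP43 (−3.51 ± 0.25), the nucleolin-like NSR1 (−3.11 ± 0.34) and RRP36 (−2.62 ± 0.44). Those short of 2-fold in the wild type were HCA4, NOP9, BUD23, FAF1, NOP19, the kinase gene HRR25 and the casein kinase genes CKA1, CKA2, CKB1 and CKB2, whose products also serve outside ribosome assembly. Of the proteins in the U3 particle SNU13 thus fell along with NOP56 and NOP58, whereas the rows named NOP1 and RRP9 did not.

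In a list of 64 genes for assembly of the large (60S) subunit 43 of 57 measured fell in the wild type and none rose, and 46 of 60 fell in ptc1. Their medians of −2.52 and −2.06 lay close to those of the 40S members, and 42 of 56 stood higher in ptc1, by a median of 0.35. The lowest were the GTPase genes NOG2 (−3.98 ± 0.20) and NUG1 (−3.97 ± 0.14), then BRX1 (−3.81 ± 0.45), NOP7 (−3.81 ± 0.34) and RPF2 (−3.77 ± 0.33). Short of 2-fold in the wild type were MAK16, RRP15, NSA1, MRT4, JJJ1, TIF6, IPI1, NOC3, LOC1, RSA1, DRS1, NOP8, DBP7 and NOP12. No test of the lists against each other was made.

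The ribosomal protein genes themselves had lower medians than the assembly genes in both strains. All 49 measured RPS genes, for the small subunit, fell in the wild type with a median of −3.61, and all 49 measured in ptc1 with a median of −3.43. Of 63 measured RPL genes, for the large subunit, 62 fell in the wild type with a median of −3.72, the exception being RPL31B at −0.38 ± 0.36. In ptc1 69 of 71 fell with a median of −3.41, and RPL31B and RPL41A (−0.93) did not reach 2-fold. The ptc1 ratio was higher in 42 of 47 RPS genes (89.4%), by a median of 0.37, and lower in 5. Among RPL genes it was higher in 58 of 63 (92.1%), by a median of 0.32, and lower in 5. A higher ratio in ptc1 is thus not particular to the members, though no RPS or RPL gene met the rule for a strain difference. The lowest RPS genes were RPS22A, RPS9B, RPS7A, RPS10A and RPS16B, from −5.33 to −4.37, and the lowest RPL genes RPL9A, RPL5, RPL12A, RPL22A and RPL6B, from −4.96 to −4.21. Many of these genes have near-identical copies that a spotted probe may not separate, so single values are uncertain.

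**Figure D4:**
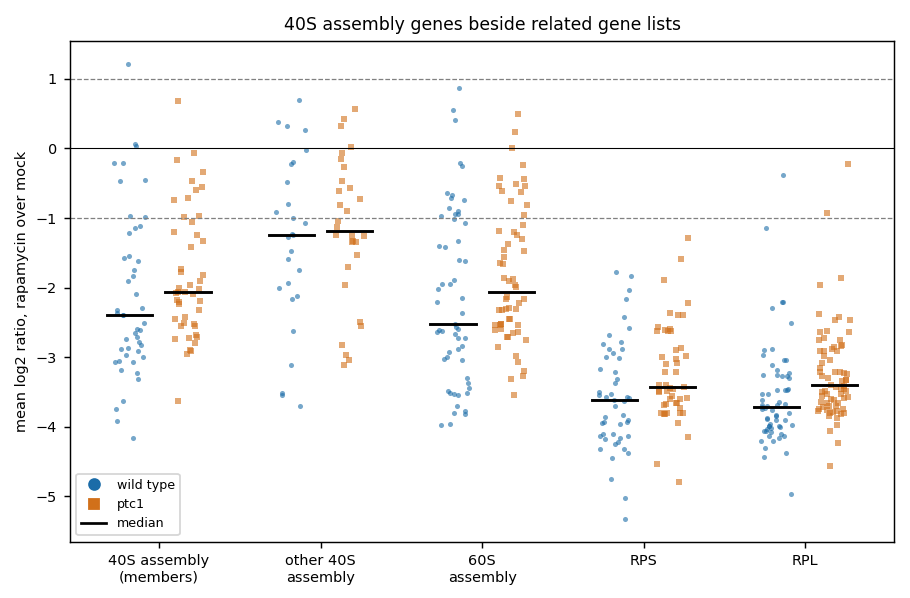
Mean log2 ratio of rapamycin over mock per gene (points) and median (bars) for the 40S assembly genes and 4 related lists, in the wild type and in ptc1; dashed lines mark 2-fold. The medians of the RPS and RPL genes lie between −3.41 and −3.72, those of the 40S members and 60S assembly genes between −2.06 and −2.52, and those of the further 40S assembly genes at −1.24 and −1.18.

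Regulators of these genes varied. TOD6 encodes a repressor that binds the PAC element found upstream of ribosome assembly genes, and it read −3.19 and −3.20 in the wild type, against −2.63 and −2.46 in ptc1. It fell in both strains, to means within the range of the UTP-A genes. Its relative DOT6 read −0.11 and 0.30 in the wild type, against 0.11 and −0.02 in ptc1, and STB3, which encodes a protein that binds the RRPE element of the same promoters, read 0.22 and 0.53, then 0.58 and −0.74. SFP1, an activator gene, had a wild-type mean of −0.28 ± 0.06, SCH9, the gene of a kinase that TORC1 phosphorylates, one of −0.59 ± 0.16, and FHL1, which acts on ribosomal protein genes, one of −0.22 ± 0.61. Of these 6 genes only TOD6 reached 2-fold in either strain. RAP1 had no wild-type value and fell in ptc1 (−1.16 ± 0.27). IFH1 stood at −0.37 ± 0.58 in ptc1, and CRF1 was not measured on both arrays of either strain.

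Position on the chromosome gave a further view, since 23 members face a divergently transcribed protein-coding neighbour with which they share an upstream region. This region spans 250 to 1290 bases, with a median of 429. Whether the genes of a pair share control elements was not tested. In 21 of these pairs both genes were measured in the wild type. The member fell in 17 of them and the neighbour in 4 (19.0%), a share near the 15.0% of all genes, and the median over the neighbours was 0.00. In ptc1 the neighbour fell in 3 of 20 pairs, with a median of 0.01.

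The neighbours that rose in the wild type were those opposite RIO1 and NOC4, 2 members that fell there. GCY1, an aldo-keto reductase gene opposite RIO1, rose to 3.07 ± 0.04 in the wild type and 2.96 ± 0.12 in ptc1. ASN1, an asparagine synthetase gene opposite NOC4 with an RNA gene between them, rose to 2.42 in the wild type with an SD that rounds to 0.00, and to 1.64 ± 0.93 in ptc1. The remaining highest neighbours were MRPL6 (0.68 ± 0.11, opposite IMP3), the proteasome gene RPN5 (0.53 ± 0.01, opposite NOP14) and AIP1 (0.37 ± 0.07, opposite UTP15), none of which reached 2-fold.

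The neighbours that fell in the wild type were RPS18A opposite UTP6 (−3.70 ± 0.01), RPS29B opposite TSR1 (−3.37, with an SD that rounds to 0.00), RPC25, an RNA polymerase III subunit gene opposite LTV1 (−1.21 ± 0.35), and DAS2 opposite FAL1 (−1.06 ± 0.39). SAS2 opposite ECM16 came next, at −0.91 ± 0.04. RPS18A and RPS29B are ribosomal protein genes, and RPS10B, another, stands opposite RRP5 and had no value. NOP1, the one member that rose, stands opposite TSC13, which was at 0.07 ± 0.22.

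**Figure D5:**
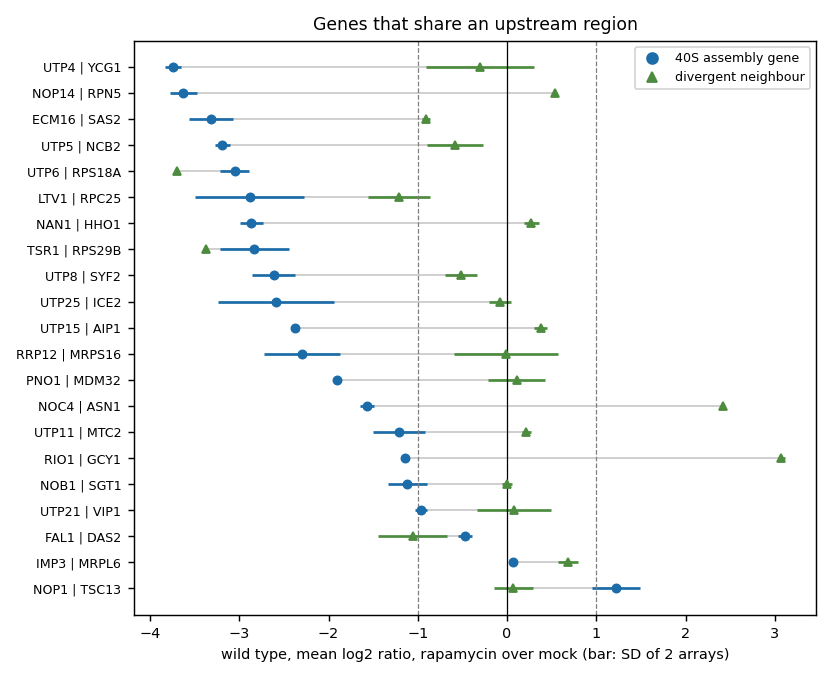
Wild-type mean log2 ratio of 21 members (circles) and of the divergently transcribed gene that shares their upstream region (triangles), with the SD of the 2 arrays as bars and dashed lines at 2-fold. The neighbours of UTP6 and TSR1 lie below −3 beside their members, whereas those of RIO1 and NOC4 lie above 2.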

How the data were processed

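RNA of the 2 strains was hybridised to 4 spotted arrays in 2 colours. Per the labels' protocols, cDNA from 8 µg of total RNA was labelled with Cy3 or Cy5, spots with a diameter under 120 µm or intensities under 150 units were left out, and the authors' normalisation used the ratio of medians. Their deposited table holds log ratios, taken as log2 of rapamycin over mock. The sources used here give no scanner, background correction, log base or direction. For ptc1 the titles and dye fields name opposite dyes, which leaves strain means unaffected.

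Rows were named through RefSeq's R64 gene table, 5662 by locus tag and 52 by synonym, while 498 kept their identifier. Averaging rows of 1 gene left 6176 genes. Calls were computed over all genes with pandas 2.3.3 under Python 3.11.15 and checked on simulated data. The ± of a difference is the root of the summed squared SDs. The number of arrays limits the precision. Strands were read from systematic names. The members and lists were chosen with earlier results of these data known. Named genes were the 10 lowest members, the lowest of each role, members not past 2-fold, the extreme strain differences and array gaps, the extremes and exceptions of other lists, and all regulators. Promoter sequences were not analysed here.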

Additional observations from a re-analysis of the deposited data

Results flagged for a closer look

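IMP3 was above 0 on both wild-type arrays and below 0 on both ptc1 arrays, a strain difference of −0.616 in the log2 ratio. The wild-type values of 0.08 and 0.05 are small, one ptc1 array read −0.09, and the difference was not tested. With each array centred on its median the wild-type mean was 0.0, so its sign was not kept, and the difference was −0.60. The IMP3 strain difference was −0.15 without ptc1 array 1 and −1.08 without ptc1 array 2.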

How the results depend on the processing

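The numbers of members that fell in each strain and the median in each strain kept their direction under every alternative run: centring each array on its median, scaling the arrays to equal spread, the first row of a gene, 3-fold and 1.5-fold lines (for counts), members on all 4 arrays (for medians too) and each array left out. Members that fell ranged from 33 to 40 in the wild type and from 31 to 41 in ptc1. The median strain difference kept its sign but made the largest move of a median, from 0.32 to 0.03, with arrays scaled to equal spread. Little of it was then left, with the ptc1 ratio higher in 25 of 46 members. The count of members with a strain difference was also less stable. It was 3, and became 0 with arrays scaled to equal spread, 0 at 3-fold and 11 at 1.5-fold, of which 1 was lower in ptc1, and ranged from 1 to 7 with 1 array left out. At 3-fold and 1.5-fold the line itself moves the count. Scaling shrinks the wild-type ratios and stretches those of ptc1, which by arithmetic lowers the difference of members that fell in both strains. The cause of the unequal spread was not tested. Using the row with a gene's own locus tag, an alternative chosen after seeing the data, moved the wild-type mean of PWP2 to −1.33 and its ptc1 mean to −1.09. The first row of PWP2 had no wild-type value. No test was run and no paired analysis was made. The labels give the arrays no replicate numbers. The dyes of the ptc1 arrays, which might pair them with wild-type arrays, differ between titles and dye fields. The promoter alternatives were not run. With 1 RNA pair per strain the spread between cultures is unknown.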
